A study of Mus musculus with 2 samples.

Results

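The nuclear pore and nuclear transport genes are those that build the channel through the nuclear envelope and carry proteins and RNA across it. They were chosen by gene symbol, as the Nup, Ipo, Kpna, Kpnb, Xpo, Tnpo and Ranbp genes plus Ran, Rangap1, Rcc1, Tpr, Rae1 and Cse1l, and 58 of 21000 protein-coding genes qualified. Binding of NRF1, nuclear respiratory factor 1, was profiled by ChIP-seq, in which an antibody pulls down a protein with the DNA it occupies, in skeletal muscle of wild-type mice. The labels hold 2 libraries, both marked with the NRF1 antibody, but the study's reporting summary lists replicate 2 as its input, and the peak names all bear the title of replicate 1. The mice were males of the C57BL/6J background, aged 9 weeks where NRF1 target genes are described, and the labels name neither the muscle nor the number of animals. Muscle tissue holds other nuclei besides those of myofibers. The data are 1 list of 3226 peaks, of which 2607 had their summit in a promoter, taken as the 1000 bp upstream and the first 100 bp downstream of any transcription start. There is thus no replicate error on any value, no test was run, and shares carry Wilson 95% intervals that cover counting error over genes or peaks only, although paralogs and neighbouring genes are not independent.

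The nuclear pore is a ring-shaped assembly of proteins called nucleoporins, with a scaffold of outer and inner rings, a central channel filled by flexible repeat proteins, filaments on the cytoplasmic side and a basket on the nuclear side. Importins bring cargo in and exportins take it out. Their direction is set by the small GTPase Ran, which is loaded with GTP at chromatin in the nucleus and hydrolyses it in the cytoplasm. NRF1 is a transcription factor best known for genes of mitochondrial respiration, and it binds as a dimer to a palindrome rich in G and C.

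The palindrome, GCGCATGCGC, was searched on both strands with up to 1 mismatch. It stood without a mismatch within 100 bp of the summit at 4 members, Ran, Xpo5, Nup107 and Nup50. These copies are shown first because they are the closest matches among the members' peaks, each with 10 bases on either side, 5′ to 3′ on the strand of the gene, from the mm10 reference of RefSeq, and capitals mark the palindrome.
Ran, chr5:129019941-129019970, plus strand: cccgcagccaGCGCATGCGCgtggcagccc
Xpo5, chr17:46202716-46202745, plus strand: acttccgcgcGCGCATGCGCcgtggcggct
Xpo5, chr17:46202739-46202768, plus strand: ggcggctccgGCGCATGCGCagcgctgggt
Nup107, chr10:117792751-117792780, minus strand: gacgaaagtcGCGCATGCGCcgagcgggaa
Nup50, chr15:84923251-84923280, plus strand: gggcgggcttGCGCATGCGCcgcgcgaccc
Nup50, chr15:84923313-84923342, plus strand: aggctccgacGCGCATGCGCagtagctgga

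At 8 further members the copy nearest the summit differed from the palindrome by 1 base. They are shown because they carry the motif at most of the members' peaks that hold it, and capitals mark the 10 matched bases.
Ranbp3, chr17:56673221-56673250, plus strand: agccgttactGCGCAGGCGCgcggccggag
Ipo9, chr1:135430504-135430533, minus strand: gtacttaggtGCGCAGGCGCggcttcgcgg
Xpo7, chr14:70766613-70766642, minus strand: agtccccagcGCGCAGGCGCagcggcgacg
Xpo4, chr14:57665236-57665265, minus strand: gcagggaaccACGCATGCGCaggccccaga
Cse1l, chr2:166906026-166906055, plus strand: ggtctcactcGCACATGCGCagtggccgcc
Rae1, chr2:173000053-173000082, plus strand: cagggcttctGCGCATGTGCgcccgccttg
Ranbp1, chr16:18248816-18248845, minus strand: aggcgcggccGGGCATGCGCcgcgggcgtt
Rcc1, chr4:132345695-132345724, minus strand: ggcccgcagaGCGCATGCTCggggcagttc

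Of the 58 members, 17 had a promoter peak, which is 29.3% (19.2 to 42.0), where 13.4% of all protein-coding genes had one. They were Ran, Rcc1, Ranbp1, Ranbp3, Ranbp9, Cse1l, Xpo4, Xpo5, Xpo7, Kpna1, Kpna3, Ipo9, Nup50, Nup107, Nup35, Nup214 and Rae1. The fold enrichment of these peaks, a linear ratio of signal to control at the summit, had a median of 13.9 with quartiles of 11.1 and 19.2. Across all promoter peaks the median was 11.1 with quartiles of 7.90 and 16.4, and 12 of the 17 members lay above that median. The members are not replicates of each other.

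**Figure D1:**
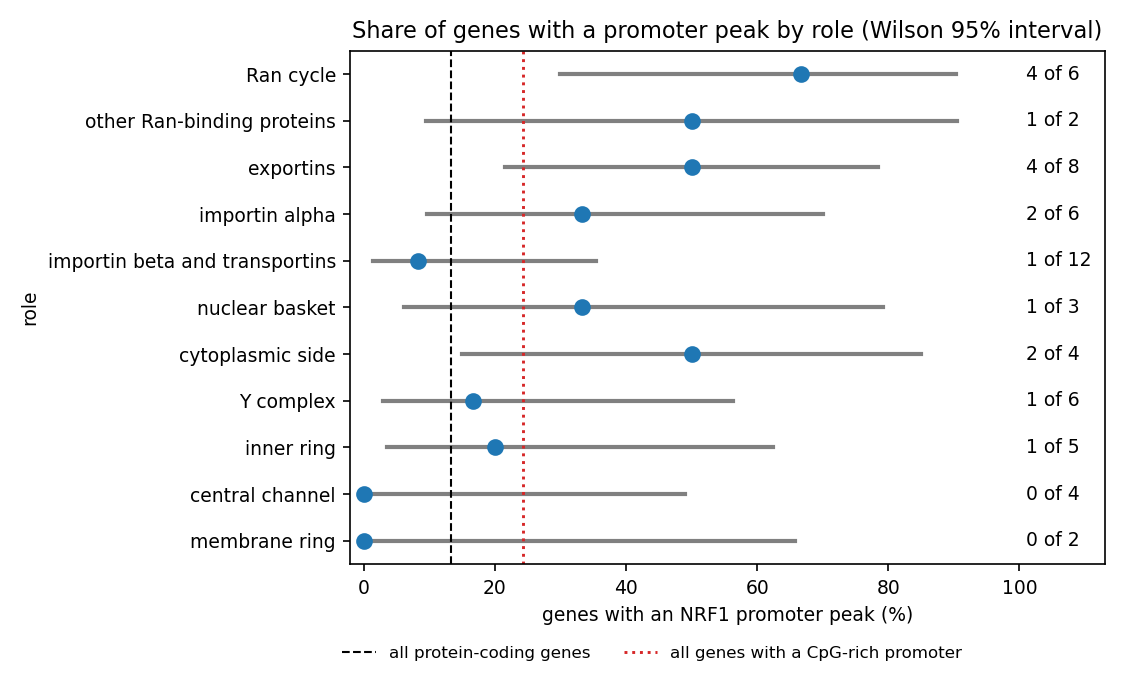
Share of genes with an NRF1 promoter peak in each role (x axis, percent), with Wilson 95% intervals as bars and counts at the right. The dashed line is the share of all protein-coding genes, 13.4%, the dotted line that of all genes with a CpG-rich promoter, 24.3%, and the Ran cycle genes stand at 4 of 6 against 1 of 12 for importin beta and transportins, with intervals that overlap.

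The genes of the Ran cycle held promoter peaks at 4 of 6 members, or 66.7% (29.999 to 90.3), where 13.4% of all genes and 24.3% of those with a CpG-rich promoter had one. Ranbp3, a nuclear Ran-binding cofactor of protein export, had a fold enrichment of 44.3 and a −log10 q of 150.6, and ranked 2 of 2607 promoter peaks by fold. Its summit lay 16 bp before the start, and its peak on chromosome 17 was 704 bp wide, the widest of the 17 members. Ranbp1, which helps release Ran from transport receptors in the cytoplasm, had a fold of 16.2 with a summit 111 bp before the start. That peak also lay in the promoter of Trmt2a, a tRNA methyltransferase gene, and the list does not say which gene it belongs to. Rcc1, the chromatin-bound exchange factor that loads Ran with GTP, had a fold of 11.4, and its summit fell in a non-coding exon, 44 bp downstream of the start. Ran itself had a fold of 9.67, below the median of all promoter peaks, although its peak held the exact palindrome 8.5 bp from the summit. The members of the cycle without a promoter peak were Rangap1, which triggers GTP hydrolysis by Ran, and Ranbp3l, a homologue of Ranbp3. The nearest summits to their starts were 81548 bp and 103319 bp away.

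Ranbp9, a scaffold protein of a ubiquitin ligase complex that was named for binding Ran, had the weakest of the member peaks. Its fold was 4.55 with a −log10 q of 4.37, its summit lay 393 bp before the start, the farthest among the members, and it held no copy of the motif. Its paralog Ranbp10 had no promoter peak.

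The exportins held promoter peaks at 4 of 8 members, or 50% (21.5 to 78.5). All 8 promoters were CpG-rich, and the 24.3% of all genes with a CpG-rich promoter lies within that interval, whereas the 13.4% of all genes does not. Xpo5, the exporter of microRNA precursors, had a fold of 19.9 and a −log10 q of 73.9, with 2 exact palindromes whose starts are 23 bp apart. This peak was shared with the promoter of Polh, which encodes a DNA polymerase. Cse1l, which returns importin alpha to the cytoplasm, had a fold of 16.8. Xpo7 and Xpo4 had folds of 13.7 and 13.4, with summits 8 bp before and 4 bp after the start. Those 4 peaks all held the motif and all lay above the median of all promoter peaks. Xpo1, the main exporter of proteins with a leucine-rich signal, had no promoter peak, and nor did Xpo6, Xpot, which exports tRNA, or Ranbp17, a relative of Xpo7.

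Importin alpha proteins are the adaptors that read the classical import signal, and 2 of 6 of their genes had a promoter peak, or 33.3% (9.68 to 70.0), an interval that holds both 13.4% and 24.3%, the shares of all genes and of all genes with a CpG-rich promoter. Kpna1 had a fold of 19.3 with a summit 68 bp before the start, and Kpna3 had a fold of 11.1 with a summit 193 bp before it. Neither peak held a copy with up to 1 mismatch. Kpna2, Kpna4, Kpna6 and Kpna7 had no promoter peak. Of the 12 importin beta and transportin genes, Ipo9, whose protein imports histones, was the only one with a promoter peak, at a fold of 13.9 and 3 bp before the start. Kpnb1, which encodes the importin beta that pairs with importin alpha, had none, with the nearest summit 127810 bp away. Ipo4, Ipo5, Ipo7, Ipo8, Ipo11, Ipo13, Ranbp6, Tnpo1, Tnpo2 and Tnpo3 had none either. The share of this role was 8.33% (1.49 to 35.4), and its interval overlaps that of every other role and holds both of those background shares.

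The nucleoporins and their partners of the pore held promoter peaks at 5 of 24 members, or 20.8% (9.24 to 40.5), and the shares of 13.4% of all genes and 24.3% of all genes with a CpG-rich promoter both lie within that interval. On the nuclear basket, Nup50, which helps strip cargo from importin alpha, had a fold of 33.6 and a −log10 q of 116.6, and ranked 28 of 2607. Nup153 and Tpr, the other basket proteins, had no promoter peak. On the cytoplasmic side, Rae1, an mRNA export factor that partners Nup98, had a fold of 19.2 with its summit 69 bp before the start. Nup214, a repeat protein of the cytoplasmic face, had a fold of 5.68 with its summit 208 bp before the start. Nup88, the partner of Nup214, and Ranbp2, the large filament protein, had no promoter peak. In the Y complex, which forms the outer rings, Nup107 alone had a promoter peak, at a fold of 14.2, whereas Nup133, Nup160, Nup85, Nup37 and Nup43 had none. In the inner ring, Nup35 had a fold of 8.18, and Nup93, Nup155, Nup188 and Nup205 had no promoter peak. None of the 4 central channel genes, Nup54, Nup62, Nup62cl and Nup98, and neither membrane ring gene, Nup210 or Nup210l, had a summit in the promoter.

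**Figure D2:**
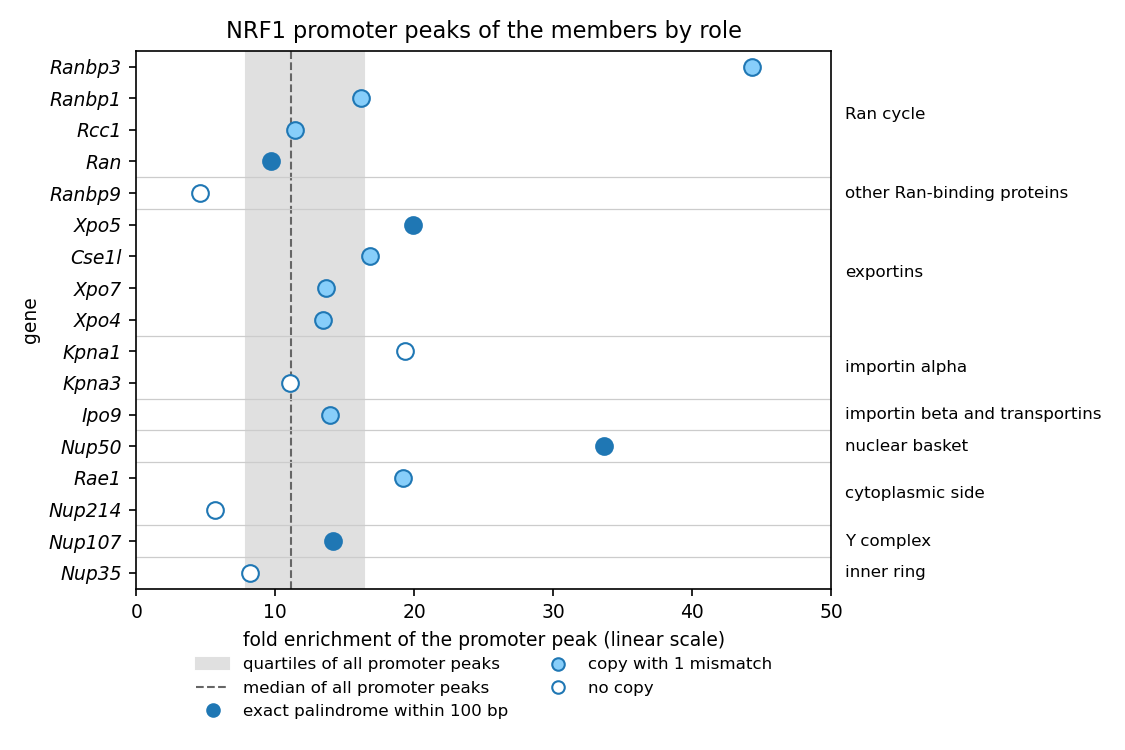
Fold enrichment (x axis, linear scale) of the 17 member promoter peaks by role, filled dark for an exact palindrome within 100 bp of the summit, light for a copy with 1 mismatch and open for none, with the quartiles of all promoter peaks as a grey band. Ranbp3 at 44.3 and Nup50 at 33.6 stand apart from the others, which lie between 4.55 and 19.9.

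Within 100 bp of the summit, 12 of the 17 member peaks held the motif with up to 1 mismatch, which is 70.6% (46.9 to 86.7), against 65.9% of all promoter peaks. The share of members is thus near that of all promoter peaks. The exact palindrome was in 4 of 17, or 23.5% (9.56 to 47.3), against 10.9% of all promoter peaks, and 2 or more copies were in 4 of 17, against 11.9%. Both background shares lie within the intervals of the members. The copy nearest the summit read GCGCAGGCGC, or its reverse complement, at Ranbp3, Ipo9, Xpo7 and Nup107, and Xpo5 held these letters in a copy farther out. Over all promoter peaks, 23.4% held these letters within 100 bp of the summit, whether or not in the nearest copy. The letters GCACATGCGC, nearest the summit at Cse1l and Rae1, were less common, within 100 bp of the summit at 2.53% of all promoter peaks. The centre of the nearest copy lay between 3.5 bp, at Rcc1, and 26.5 bp, at Ranbp3, from the summit, with a median of 16.5 bp over the 12 members.

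The peaks with the highest folds differed in their copies. Nup50 had 3 copies within 100 bp of its summit, with starts 53 bp and 62 bp apart, and Ranbp3 had 2 whose starts were 72 bp apart. Ranbp3 held no exact palindrome, so the highest fold among the members was at changed copies. The sequences around both summits are given because these are the strongest peaks of the members, with the copies in capitals. The third copy of Nup50, an exact palindrome, lies past the window printed here and is the second of the Nup50 copies shown above.
Ranbp3, chr17:56673149-56673254, plus strand: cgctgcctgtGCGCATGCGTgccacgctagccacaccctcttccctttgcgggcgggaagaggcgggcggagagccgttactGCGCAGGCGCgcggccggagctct
Nup50, chr15:84923174-84923293, plus strand: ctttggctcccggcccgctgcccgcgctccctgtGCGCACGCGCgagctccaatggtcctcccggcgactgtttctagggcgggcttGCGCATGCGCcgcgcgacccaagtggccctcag
The 12 member peaks with a copy had a median fold of 15.2 and the 5 without one a median of 8.18. Over all promoter peaks the medians were 12.9 for 1719 with a copy and 8.58 for 888 without.

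The 5 member peaks without a copy were those of Kpna1, Kpna3, Nup35, Nup214 and Ranbp9. Kpna1, at a fold of 19.3, was the exception among them in height, and it was also the only one with copies at 2 mismatches, of which it had 2. Nup35 had the least GC-rich summit of all members, at 50.2% within 100 bp, and Ranbp9 the most, at 85.1%. The windows of Kpna1 and Nup35 are shown because they are a strong and a weak peak without the motif, so no base is in capitals.
Kpna1, chr16:35983235-35983354, plus strand: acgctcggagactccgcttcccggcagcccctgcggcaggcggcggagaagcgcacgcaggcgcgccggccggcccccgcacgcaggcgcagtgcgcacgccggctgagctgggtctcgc
Nup35, chr2:80638681-80638800, plus strand: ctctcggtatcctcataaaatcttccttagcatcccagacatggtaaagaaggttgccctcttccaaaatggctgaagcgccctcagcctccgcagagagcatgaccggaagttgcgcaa
No match says only that these letters are not in these windows.

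The summits of the members lay close upstream of their own start, with a median of −71 bp and a range of −393 to 44 bp. All promoter peaks had a median of −50 bp, measured from the nearest start of any gene whose promoter held the summit. Of the 17 summits, 11 lay within 100 bp of the member's start, or 64.7%, against 71.2% of all promoter peaks. The nearest of several genes can only be closer, so members and background are not measured alike and no difference is read from them. The other member summits were those of Nup50, Kpna3, Ran, Nup214, Ranbp1 and Ranbp9. At Nup50, Ran and Ranbp1 the motif nearest the summit was displaced with it, at −215.5 bp, −200.5 bp and −136.5 bp from the start. Kpna3, Nup214 and Ranbp9 held no copy.

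**Figure D3:**
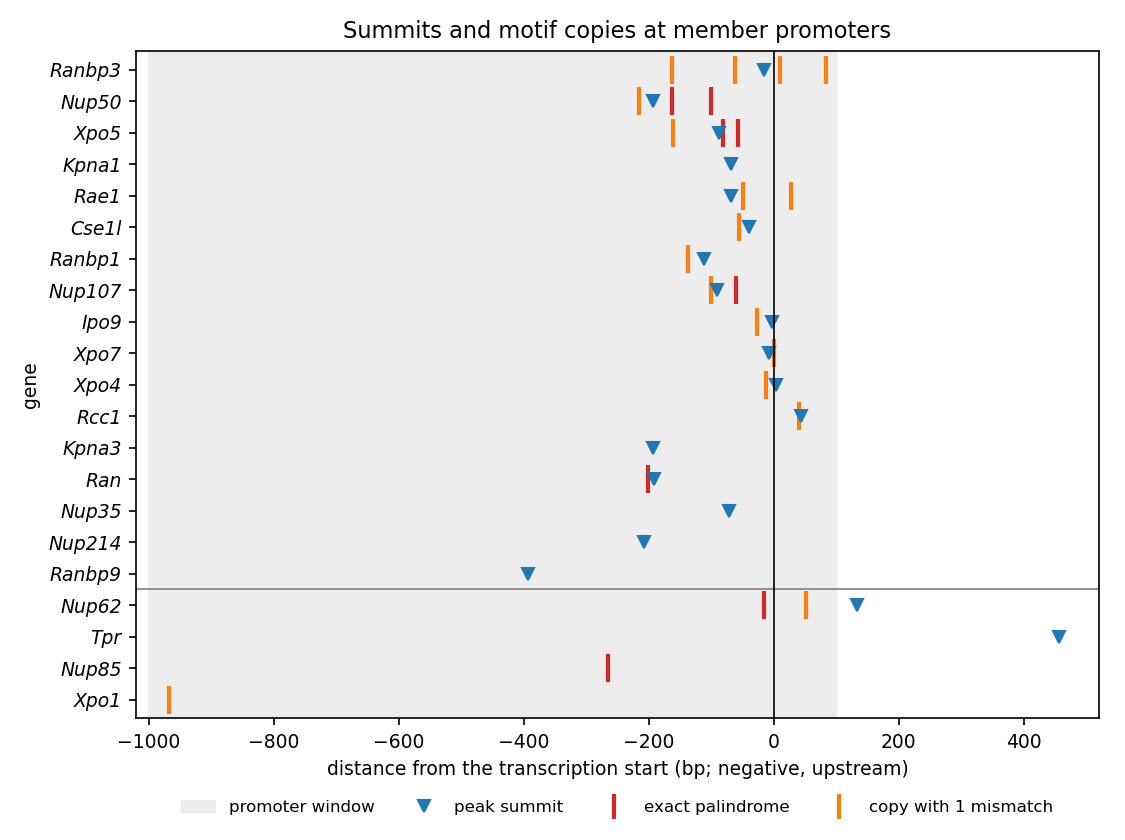
Peak summits (triangles) and copies of the NRF1 palindrome inside the promoter (bars, red without and orange with 1 mismatch) against distance from the transcription start in bp, for the 17 members with a promoter peak and, under the line, Nup62, Tpr, Nup85 and Xpo1, with the promoter window in grey. The copies nearest the summit stand within 26.5 bp of it at 12 members, and the summits of Nup62 and Tpr lie past the window at 133 bp and 457 bp.

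The calls at Nup62 and Tpr depended on the promoter window and on the annotation, and that at Nup62 also on whether the summit or any part of the peak had to lie in the promoter. Nup62, a repeat protein of the central channel, had a summit 133 bp after its start, in a non-coding exon, with a fold of 16.8 and a −log10 q of 62.2. That peak held 3 copies with 1 mismatch within 100 bp of the summit, and it lay in the promoters of Atf5 and Il4i1b. Tpr, the filament protein of the basket, had a summit 457 bp after its start, in an intron, with a fold of 13.5 and no copy, and that peak lay in the promoter of Odr4. With 500 bp either side of the start as the promoter, both were counted and 19 members had a peak, against 14.1% of all genes. Both were also counted with GENCODE M21 starts and the promoter as used elsewhere, and Nup62 was counted when any overlap of 1 bp sufficed. The next nearest summits among members without a promoter peak were 2026 bp away at Tnpo2, 4215 bp at Nup43, 6381 bp at Ranbp6 and 13240 bp at Kpna2, and the peaks near Nup43 and Ranbp6 lay in the promoters of A630066F11Rik and 9930021J03Rik. Of the 41 members without a promoter peak, 36 had no summit within 10000 bp of a start.

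Copies of the palindrome were also searched in the promoters themselves, whether or not a peak was there. Among the members, 15 promoters, or 25.9%, held a copy with up to 1 mismatch, against 12.1% of all protein-coding genes. An exact palindrome was in 6 member promoters, or 10.3% (4.83 to 20.8), against 1.75% of all protein-coding genes. All 6 were among the 52 members with a CpG-rich promoter, and 317 of all 10395 genes with a CpG-rich promoter held one. Of these 6, 4 had a peak, or 66.7% (29.999 to 90.3). Of all genes with the exact palindrome in the promoter 89.4% had one, which lies within that interval. The exceptions were Nup62 and Nup85, and their copies are shown because they match the palindrome in full where no summit lay in the promoter.
Nup62, chr7:44816058-44816087, plus strand: ataagacaatGCGCATGCGCaacaggttgt
Nup85, chr11:115564164-115564193, plus strand: gcacgcttctGCGCATGCGCacaccctccc
The copy at Nup62 lay inside the called peak, which spans chr7:44815810-44816603 and covers the start, at 148.5 bp from its summit, whereas the copy at Nup85, a Y complex protein, was 64123.5 bp from the nearest summit. At 9 members the best copy had 1 mismatch, and 8 of them had a promoter peak, or 88.9% (56.5 to 98.0), against 73.0% of all such genes. Xpo1 was the exception, and its copy lay at −967.5 bp from the start, near the far edge of the promoter. Among the 43 members with no copy, 5 had a promoter peak, or 11.6% (5.07 to 24.5), against 4.81% of all such genes. Among the 37 of them with a CpG-rich promoter the share was 13.5% (5.91 to 28.0), against 9.50% of all CpG-rich genes with no copy, which lies within the interval.

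Promoters rich in the dinucleotide CpG made up most of the members. By GC content and the observed to expected CpG ratio around the start, 52 of 58 member promoters, or 89.7%, were CpG-rich, against 49.5% of all protein-coding genes. All 17 members with a promoter peak were among these 52, a share of 32.7% (21.5 to 46.2), where 24.3% of all genes with a CpG-rich promoter had a peak. That background lies within the interval of the members, so at this number of genes the share of CpG-rich members was not distinguishable from it. The 6 members whose promoter was not CpG-rich, Ipo8, Kpna7, Nup160, Nup210l, Nup43 and Ranbp3l, had none, where 2.69% of all such genes did, and the interval of 0 of 6 reaches up to 39.0%. A copy of the motif was in 28.8% of the CpG-rich member promoters and in 20.6% of those of all CpG-rich genes. The part of base composition and of the motif in the count of members was not tested.

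**Figure D4:**
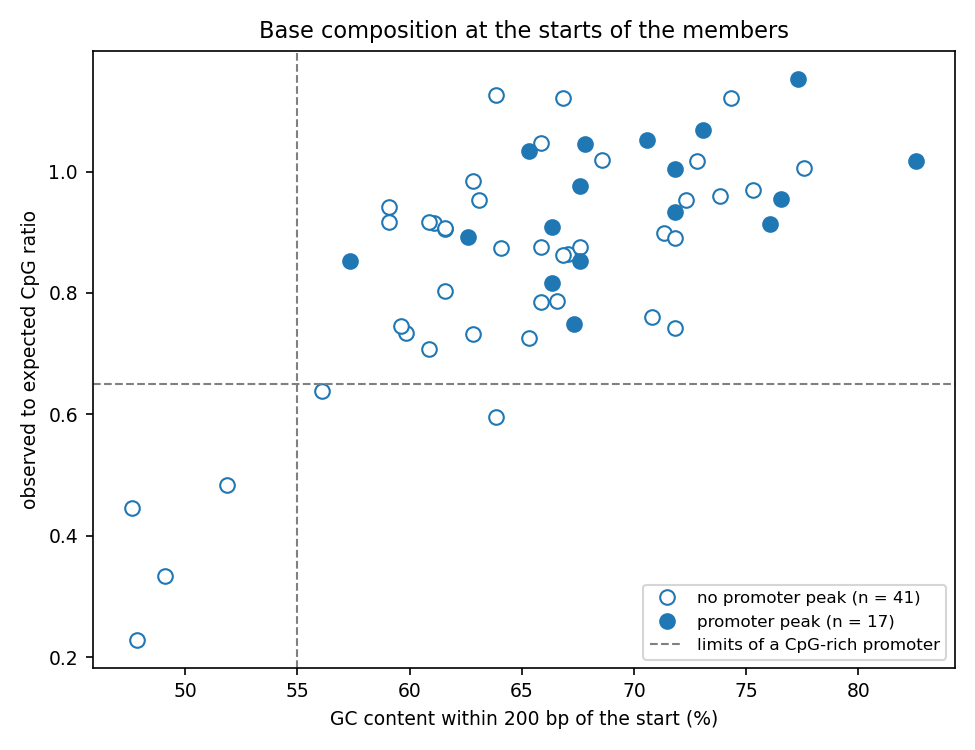
GC content (x axis, percent) and observed to expected CpG ratio (y axis) within 200 bp of the start of each of the 58 members, filled for a promoter peak and open for none, with the limits of a CpG-rich promoter dashed. All 17 members with a peak lie above both limits, among 35 CpG-rich members without one.

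Base composition overlapped between members with and without a peak. The 17 with a peak had a GC content of 57.4% to 82.5% with a median of 67.8%, and the 41 without had 47.6% to 77.6% with a median of 64.1%. The CpG ratio had a median of 0.954 with a peak and 0.876 without. Of 3 other short words searched on both strands from 250 bp before to 50 bp after 1 start per gene, the GC box GGGCGG was in 64.7% of members with a peak and 68.3% of those without, against 72.3% of all genes with a promoter peak and 48.3% of all genes. The ETS core CCGGAAG was in 23.5% and 12.2%, against 21.9% of all genes with a promoter peak and 12.1% of all genes. The YY1 core AAGATGG was in 5.88% and 12.2%, against 7.69% and 6.42%. These are matches of letters, not sites.

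Close relatives among the members were compared in 11 pairs of paralogs, listed from general knowledge after the values were seen. Of the 22 genes in them, 5 had a promoter peak, or 22.7%, so few pairs could have it at both genes. Of all protein-coding genes 13.4% had a promoter peak, and of those with a CpG-rich promoter 24.3% did. A peak stood at 1 gene in 5 pairs, at both in 0 and at neither in 6, and nothing is read from these counts about the pairs. The 5 were Kpna1 with Kpna6, Kpna3 with Kpna4, Xpo7 with Ranbp17, Ranbp3 with Ranbp3l and Ranbp9 with Ranbp10, where the first of each pair had the peak. The pairs without a peak were Kpna2 with Kpna7, Tnpo1 with Tnpo2, Ipo7 with Ipo8, Ipo5 with Ranbp6, Nup210 with Nup210l and Nup62 with Nup62cl. Nup62 was counted without a peak here, and its call depended on the promoter window, the annotation and the overlap rule. In 4 of the 5 pairs with a peak both promoters were CpG-rich, the exception being Ranbp3l.

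Other genes of the pathway were taken from a list of 24 that the symbols did not reach, and 5 of them, or 20.8% (9.24 to 40.5), had a promoter peak. The shares of all genes, 13.4%, and of all genes with a CpG-rich promoter, 24.3%, both lie within that interval. Nxf1 and Nxt1, which form the main mRNA exporter, had folds of 9.39 and 10.3, and Nxt1 held the motif, while the peak of Nxf1 also lay in the promoter of 1700023D09Rik. Ncbp1, a subunit of the complex that binds the mRNA cap in the nucleus, had a fold of 13.3, held the motif and shared its peak with Tstd2. Nutf2, which carries Ran back into the nucleus, had a fold of 7.05, and Pcid2, a subunit of an mRNA export complex, had 6.71 and shared its peak with Cul4a. The peaks of these 5 lay below the median of the members, 13.9. Those without a promoter peak were Seh1l, Sec13, Ahctf1, Aaas, Pom121, Ndc1, Tmem33, Gle1, Ddx19a, Ddx19b, Nxt2, Nxf7, Snupn, Phax, Ncbp2, Rangrf, Mcm3ap, Eny2 and Agfg1. Seh1l, a Y complex gene, had a summit 432 bp after its start with a fold of 14.9.

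A gene with a divergent neighbour shares its promoter with it, and 9 of 58 members, or 15.5% (8.38 to 26.9), had one whose start lay within 1000 bp, against 11.7% of all protein-coding genes. Of the 9, 2 had a promoter peak, or 22.2% (6.32 to 54.7), an interval that holds the 31.2% of all protein-coding genes with such a neighbour. The 2 were Xpo5 and Ranbp1, and the list gives no direction to their peaks.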

How the data were processed

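ChIP-seq reads of NRF1 in wild-type mouse skeletal muscle were, as the study describes it, aligned by the authors to mm10 with Bowtie. Uniquely mapped reads outside blacklisted regions were kept, and peaks were called with MACS2 against input. The blacklist named is of a human build, and the methods mention broad peaks whereas the list has a narrow-peak layout. The deposited fold enrichment of a peak is a ratio, summit signal over control background. The deposited q-value is on the −log10 scale, and 3219 of 3226 peaks had one of at most 0.01. The methods exclude peaks with a false discovery rate above 0.01, and the number of sites the study states is not that of the list, so the list may not be the published one. Duplicate removal, named in the peak names, caps the signal of strong sites, and unique mapping removes repeats.

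Starts of known RefSeq transcripts (GRCm38) and the genome were then used to assign summits, and copies of the NRF1 palindrome were searched on both strands with up to 1 mismatch, with all 10 bases within 100 bp of the summit or inside the promoter. A promoter was called CpG-rich when the 200 bp either side of any start of the gene had at least 55% GC and an observed to expected CpG ratio of at least 0.65. Scripts used Python 3.11.15, pandas 2.3.3 and numpy 2.4.6 and were tested on simulated data. Intervals are Wilson 95% intervals. No test was run, since 1 list holds no replicate value. The members and lists were chosen with earlier results of these data known. Named were all members, with values for those with a promoter peak, the 6 next nearest to a summit, members with the exact palindrome but no promoter peak, and the listed pathway genes with a peak. Values for Rangap1, Ranbp3l, Kpnb1, Xpo1 and Seh1l, outside that rule, were added after they were seen. The alternatives changed the promoter window, the overlap rule, the limits on q-value and fold, the annotation, the motif rule and the CpG rule.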

Additional observations from a re-analysis of the deposited data

How the results depend on the processing

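Of 47 alternative values for 7 results, 45 stayed within 1.5 times the count reported or, for the median fold enrichment, within its 95% order-statistic interval of 11.1 to 19.2. The number of members with a promoter peak ranged from 16 to 19, and the number of all protein-coding genes from 2680 to 3089. All 17 members kept their promoter peak under each alternative window, the overlap rule and both other annotations, and Ranbp9 was lost at a fold of at least 5 and at a q-value of at most 1e-05. Nup62 and Tpr were gained with 500 bp either side of a start, with 2000 bp before to 500 bp after, and with GENCODE M21 starts. Any overlap of at least 1 bp added Nup62. GENCODE starts and the limit of 0.01 on the q-value were chosen after seeing the data. With no mismatch allowed, 4 member peaks held the motif in place of 12, since fewer letters match by construction. With 500 bp either side as the promoter, 1 member in place of 2 held the exact palindrome without a peak, because Nup62 then had one. No paired analysis was possible because the 1 peak list used here holds no value for each library. For the same reason no replicate could be left out. The reads were not used here and the list gives no depth, so a promoter without a peak is one where no peak passed the threshold.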
